A study of Mus musculus with 10 samples.

Results

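Lysosomes are the acidic organelles in which cells break down lipids, sugars, proteins and nucleic acids. Soluble hydrolases and their activator proteins work inside the organelle, while glycosylated membrane proteins line it and transporters and ion channels move the products and ions across its membrane. In the nervous system many of these genes are known from inherited storage diseases, and microglia, the phagocytes of the tissue, are rich in lysosomes. A family of transcription factors around TFEB is known to bind a palindromic E-box, the CLEAR element, in front of many lysosomal genes.

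The genes described here are 47 lysosomal enzymes, activators and membrane proteins, without the cathepsins, taken by symbol from the deposited table. All 47 were found among its 25232 genes. The spinal cord of 5 SOD1 and 5 wild type (WT) mice had been sequenced, all of them female and 90 days old, with the strain labelled as C57BL/6 and given in the methods as C57BL/6J. The SOD1 mice overexpress human *SOD1* with the G93A mutation from a transgene present in many copies, and the WT mice were littermates without it. The labels give the spinal cord as the tissue, which the methods narrow to its lumbar part.

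The table gives 1 value per gene that does not come from the authors' own comparison of the genotypes. It is the base mean, the mean of the read counts of a gene over the libraries after division by a size factor for each library. The base mean pools both genotypes, so that it shows how strongly a gene was expressed in these cords and not how the SOD1 mice differed from the WT mice. No difference between genotypes is therefore given, no value of a single mouse can be shown, and the base mean carries no SD. Whether neighbours in an order of levels differ beyond the spread between mice was not tested. The base means of all genes sum to 22158933, and 4259 genes are listed at 0.

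Long transcripts give more reads than short ones at the same number of molecules. To compare genes with each other, each base mean was divided by the length of the gene's exons in kilobases (kb), with overlapping exons of all transcripts in the GENCODE M21 annotation of GRCm38 counted once. The result is called the level per kb. It could be formed for 20358 genes with a base mean above 0, and these are the ranked genes. In bulk tissue a low level can come from few expressing cells or from little RNA in each cell, and these cannot be told apart.

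The lysosomal genes were expressed well above the typical gene. Their median level was 346 normalized counts per kb, against 63.5 for all ranked genes and 84.3 for the protein-coding genes among them. Of the 47 genes, 41 lay above the median of the ranked genes, where 50% of all genes lie by construction. Of these 41, 14 lay in the top 10% of the ranking, which holds 10% of all genes. The levels ranged from 6.09 per kb for *Acp5* to 14496 per kb for *Psap*. Together the 47 genes held 0.688% of all normalized counts, and *Psap* alone held 26.1% of that share. The 5 genes with the highest base means, *Psap*, *Lamp1*, *Gaa*, *Ids* and *Scarb2*, made up 54.0% of it.

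**Figure D1:**
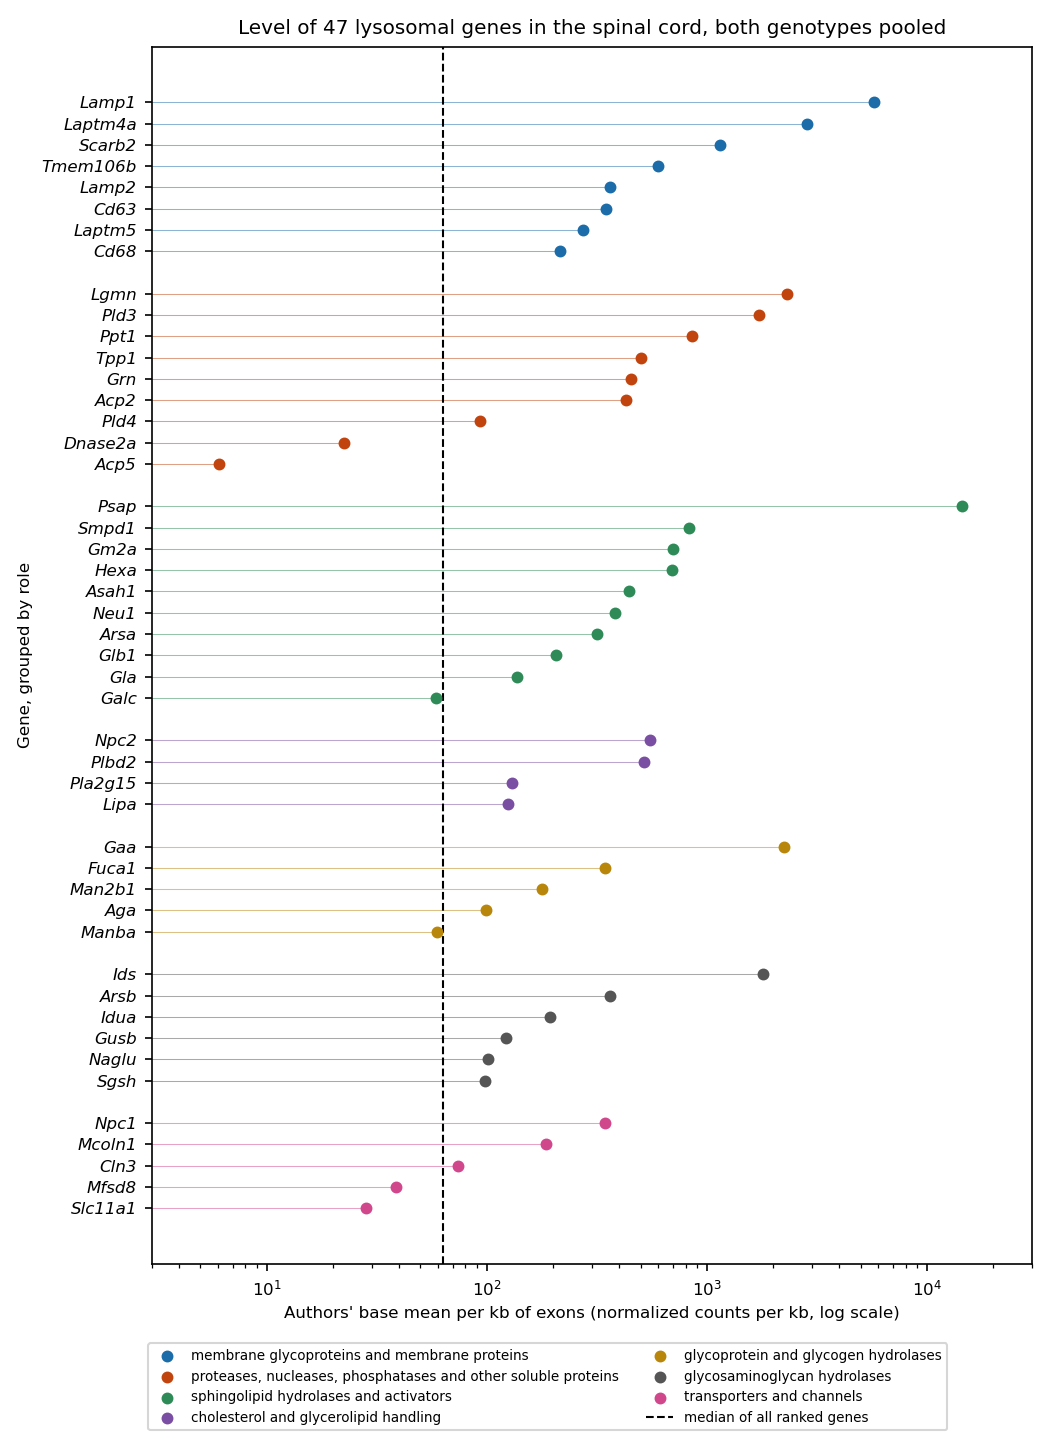
Level of each of the 47 lysosomal genes as the authors' base mean per kb of exons (log scale), grouped by role, with 1 point per gene and no error bars because the base mean pools all libraries. The dashed line is the median of all ranked genes (63.5 per kb), and only *Manba*, *Galc*, *Mfsd8*, *Slc11a1*, *Dnase2a* and *Acp5* lie to the left of it.

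Of the 43 genes with a promoter sequence in the RefSeq table for GRCm38.p6, 10 held the 6-base E-box core CACGTG within 300 bases around the start site, the window from 250 bases upstream to 50 bases downstream. That is 23.3% of the genes, against 8.09% of all 27025 genes with such a window and 8.91% of the protein-coding ones. *Aga*, *Asah1*, *Npc1* and *Plbd2* had no window. The longer motif GTCACGTG, which contains the core and was searched on both strands, was present in 9 of the 43 (20.9%), against 2.55% of all genes and 3.19% of the protein-coding genes. *Gaa* was the gene that held the core without the longer motif. A match of letters is a description of the sequence, and binding was not measured. Since the element is already known from lysosomal genes, a higher share in lysosomal lists, here and below, is no independent result.

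*Lamp1*, the gene of a major lysosomal membrane glycoprotein, held 4 cores in the 70 bases just before its start site on the plus strand (chr8:13159091-13159160). The sequence is shown because no other of the 43 genes had more than 2 cores. The capitals mark the cores.

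Lamp1: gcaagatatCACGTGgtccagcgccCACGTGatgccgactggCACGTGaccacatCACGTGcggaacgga

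The site nearest to the start of each other gene is shown on the strand of the gene, so that the shared letters around the core can be compared. Capitals mark GTCACGTG or its reverse complement, and for *Gaa* the core alone. In *Cln3* the capitals run over 10 bases because the motif and its reverse complement overlap there. The sites lie at chr15:89477425-89477450 for *Arsa*, chr7:126583342-126583367 for *Cln3*, chr11:119267813-119267838 for *Gaa* and chrX:134601184-134601209 for *Gla*. The site of *Glb1* is at chr9:114401020-114401045, that of *Lgmn* at chr12:102439126-102439151 and that of *Mcoln1* at chr8:3500464-3500489. Those of *Naglu* and *Sgsh* are both on chromosome 11, at chr11:101070011-101070036 and chr11:119355524-119355549. *Arsa*, *Cln3*, *Gla*, *Lgmn* and *Sgsh* are on the minus strand.

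Arsa: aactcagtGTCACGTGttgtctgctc
Sgsh: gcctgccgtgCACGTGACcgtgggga
Mcoln1: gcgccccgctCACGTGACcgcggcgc
Glb1: gcttctgaGTCACGTGgcctacagag
Lgmn: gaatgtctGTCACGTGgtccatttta
Naglu: accttcagGTCACGTGgcccgaggtc
Cln3: cgggtactGTCACGTGACccccaacc
Gaa: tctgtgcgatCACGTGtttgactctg
Gla: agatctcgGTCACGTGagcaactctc

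The 10 genes held 16 cores, and all 16 lay upstream of the start site. Of these, 11 (68.8%) lay entirely within the last 100 bases before it, against 43.5% of the 2589 cores found in the windows of all genes. *Lamp1* alone gave 4 of the 11. These shares count cores and not genes, and cores of the same gene are not independent. The nearest cores began 15 bases before the start in *Lamp1* and 16 bases before it in *Arsa*, and the farthest 227 bases before it in *Gla*. *Mcoln1*, the gene of a calcium channel of the lysosomal membrane, had cores at 71 and 45 bases before the start, both as part of the longer motif. The start sites are those of RefSeq, and GENCODE places exons over the sites of *Cln3*, *Mcoln1*, *Naglu* and *Sgsh* from transcripts of the same gene and over those of *Gla* from *Hnrnph2*. The *Arsa* sequence touches the first exon with 1 base. *Cln3* and *Lgmn* had 2 windows each, and cores were found in only 1 window of each gene. On the minus strand these windows lie inside the gene as GENCODE places it. They end at base 126583486 for *Cln3* (gene end 126585817) and at 102439342 for *Lgmn* (gene end 102439813).

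**Figure D2:**
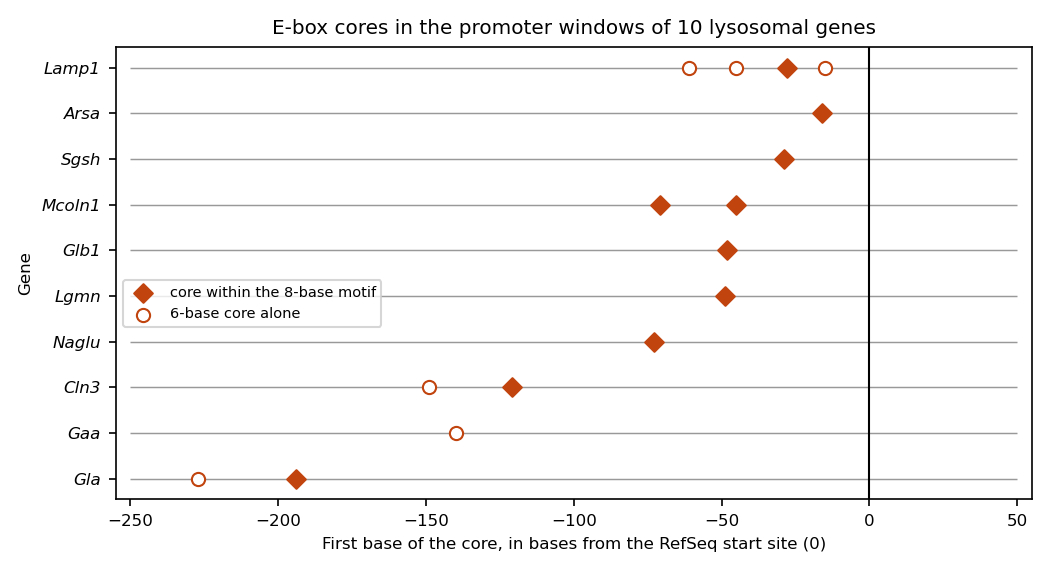
First base of each CACGTG core in the promoter windows of 10 lysosomal genes, in bases from the RefSeq start site, with filled diamonds for cores inside GTCACGTG and open circles for the core alone. The 4 cores of *Lamp1* sit between 61 and 15 bases before the start, and 0 of the 16 cores lie after it.

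The cores were spread over the roles. They were found in 3 of 9 sphingolipid genes with a window (*Arsa*, *Gla* and *Glb1*), 2 of 6 glycosaminoglycan hydrolases (*Naglu* and *Sgsh*) and 2 of 4 transporters and channels (*Cln3* and *Mcoln1*). *Lamp1* was the 1 of 8 membrane proteins, *Gaa* the 1 of 4 glycoprotein and glycogen hydrolases and *Lgmn* the 1 of 9 proteases, nucleases, phosphatases and other soluble proteins with a core. None was found in the 3 genes of cholesterol and glycerolipid handling. The median level of the 10 genes with a core was 196 per kb (from 74.0 for *Cln3* to 5752 for *Lamp1*) and that of the 33 genes with a window and no core was 362 per kb (from 6.09 to 14496). *Psap*, the most highly expressed of the 47, had no core in its window.

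Further lysosomal lists were searched in the same way, and the lists of cell type markers served as a background. Among genes that deliver enzymes to the lysosome, 4 of 7 with a window held the core (*Gga2*, *Gnptg*, *Igf2r* and *Nagpa*), all 4 in the longer motif. Among subunits of the V-ATPase, the pump that acidifies the lysosome, 4 of 12 held the core (*Atp6v0b*, *Atp6v0d1*, *Atp6v0e* and *Atp6v1a*) and 2 of the 12 the longer motif. Of the 4 lysosomal transcription factor genes (*Tfeb*, *Tfe3*, *Mitf* and *Tfec*), all with a window, 0 held the core. Of 31 cell type markers with a window, 2 held the core (*Chat* and *P2ry12*) and 0 the longer motif. Over all genes with a window, 8.09% held the core and 2.55% the longer motif.

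Among the 7 roles, the membrane glycoproteins and other membrane proteins had the highest median, 482 per kb over 8 genes, and all 8 lay above the median of the ranked genes. *Lamp1* spans bases 13159161 to 13175338 of chromosome 8 (GRCm38), and its base mean was 15387. At 5752 per kb it was number 71 of the 20358 ranked genes. Its relative *Lamp2*, on the X chromosome from 38401357 to 38456454, which takes part in autophagy, had a base mean of 3476 and a level of 364 per kb. *Lamp1* was thus 15.8 times as high as *Lamp2* per kb of exons, but 7.16 times per kb of the longest transcript and 4.54 times per kb of coding sequence, because annotated exons of *Lamp2* cover 9552 bases and its longest transcript 3604.

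*Laptm4a*, a membrane protein of late endosomes and lysosomes, reached 2837 per kb, and *Scarb2*, a receptor that carries a lysosomal enzyme to the organelle, reached 1145. *Tmem106b*, a lysosomal membrane protein linked to frontotemporal dementia risk, had a level of 600 per kb, and the tetraspanin gene *Cd63* had one of 349, which is uncertain because an annotated pseudogene copies it. The lowest of the group were *Laptm5* and *Cd68*, both known from macrophages and microglia. *Laptm5* had a level of 273 per kb and *Cd68* of 215, with base means of 1033 and 271. The 8 microglial markers described further below ranged from 66.4 to 1458 per kb, so a low level was not shared by all genes of such cells. *Laptm4a* was 10.4 times as high as *Laptm5* per kb of exons and 4.17 times per kb of coding sequence.

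The transporters and channels were the role with the lowest median, 74.0 per kb over 5 genes. *Npc1*, which exports cholesterol from the lysosome, was the highest at 346 per kb, with a base mean of 3917. *Mcoln1* followed at 185 per kb and *Cln3*, the gene of juvenile neuronal ceroid lipofuscinosis, at 74.0. *Mfsd8*, mutated in another form of this storage disease, had 38.5 per kb. *Slc11a1*, a metal transporter of phagocytes, had 28.3 per kb, lower than all but *Dnase2a* and *Acp5* of the 47 genes. Its base mean was 105, lower than all but *Acp5*.

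The hydrolases and activators of sphingolipids held both a very high and a low member. *Psap* encodes the precursor of the saposins, small proteins that present sphingolipids to their hydrolases. It lies on chromosome 10 from 60277627 to 60302597, had a base mean of 39776 and was number 8 of all ranked genes. It was 2.52 times as high per kb as *Lamp1*, the next of the 47. *Galc*, which removes galactose from the myelin lipid galactosylceramide with the help of a saposin, was the lowest of the 10, at 58.8 per kb. The difference between *Psap* and *Galc* was 247 times per kb of exons, 76.0 times per kb of the longest transcript and 55.9 times per kb of coding sequence. Annotated exons of *Galc* cover 14879 bases, 3.35 times its longest transcript, which was the largest such ratio among the 47 genes.

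The other 8 members of this role lay between these. *Smpd1*, the acid sphingomyelinase, had a level of 830 per kb. The ganglioside activator *Gm2a* and the hexosaminidase subunit gene *Hexa*, whose products act together on the ganglioside GM2, had 705 and 696 per kb, so that their levels differed by 1.01 times on this scale. Per kb of coding sequence *Gm2a* was 5.73 times as high, since its coding sequence spans 579 of the 4127 exonic bases. *Asah1*, the acid ceramidase, had 442 per kb, the sialidase gene *Neu1* 383, the sulfatase gene *Arsa* 317, the beta-galactosidase gene *Glb1* 206 and the alpha-galactosidase gene *Gla* 137.

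Of the 6 hydrolases of glycosaminoglycans, *Ids*, the iduronate sulfatase on the X chromosome from 70343069 to 70365084, stood apart at 1805 per kb and a base mean of 9207. *Arsb* followed at 362 per kb, *Idua* at 194, *Gusb* at 122, *Naglu* at 101 and *Sgsh* at 98.2. These act on heparan or dermatan sulfate in a chain of steps, and the gene of the first sulfatase step was 18.4 times as high per kb as that of *Sgsh*. The median of the 6 genes was 158 per kb, and all 6 lay above the median of the ranked genes.

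Among the hydrolases of glycoproteins and glycogen, *Gaa* had the highest level. It encodes acid alpha-glucosidase, which breaks down glycogen, lies on chromosome 11 from 119267887 to 119285454, and had 2244 per kb at a base mean of 10734. *Fuca1*, a fucosidase, had 346 per kb, and the mannosidase gene *Man2b1* had 179. *Aga*, which cleaves the bond between sugar chain and asparagine, had 99.2 per kb. The lowest was the beta-mannosidase gene *Manba* at 59.3 per kb, just under the median of the ranked genes. *Man2b1* was 3.01 times as high as *Manba* both per kb of exons and per kb of coding sequence.

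In cholesterol and glycerolipid handling, *Npc2*, the soluble partner of *Npc1*, had 553 per kb. *Npc1* was 0.626 times as high as *Npc2* per kb of exons and 0.152 times per kb of coding sequence, although its base mean was 1.30 times that of *Npc2*. *Plbd2*, a phospholipase-like protein, had 516 per kb. The phospholipase gene *Pla2g15* had 131 per kb and *Lipa*, which cleaves cholesteryl esters and triglycerides, had 125.

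The last role held 9 proteases, nucleases, phosphatases and other soluble proteins with a median of 454 per kb. *Lgmn*, an asparaginyl protease on chromosome 12 from 102394084 to 102439813, had the highest level, 2314 per kb. *Pld3*, an exonuclease expressed in neurons, had 1727 per kb at a base mean of 5050. Its relative *Pld4*, an exonuclease of myeloid cells, had 93.5 per kb at a base mean of 324. *Pld3* was 18.5 times as high as *Pld4* per kb of exons, 14.8 times per kb of the longest transcript and 16.1 times per kb of coding sequence. The thioesterase gene *Ppt1* had 856 per kb and the peptidase gene *Tpp1* 502, and both are mutated in childhood ceroid lipofuscinoses. *Grn*, the gene of progranulin, had 454 per kb.

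The acid phosphatases also differed widely in level. *Acp2*, the lysosomal acid phosphatase, had 427 per kb and a base mean of 2215. *Acp5*, the tartrate-resistant phosphatase of osteoclasts and macrophages, had 6.09 per kb and a base mean of 12.4, the lowest of the 47 on both scales. The gap was 70.1 times per kb of exons and 138 times per kb of coding sequence. Its size is uncertain, because *Acp5* lay below even the liver genes described further below. The lowest of these, *Apoa1*, had 18.5 per kb at a base mean of 22.9. The nuclease gene *Dnase2a* had 22.5 per kb at a base mean of 121. Exons of *Mast1*, a gene on the opposite strand with a base mean of 4624, cover 29.99% of the exonic bases of *Dnase2a*, and the strand setting of the counting is not given in the sources used here.

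**Figure D3:**
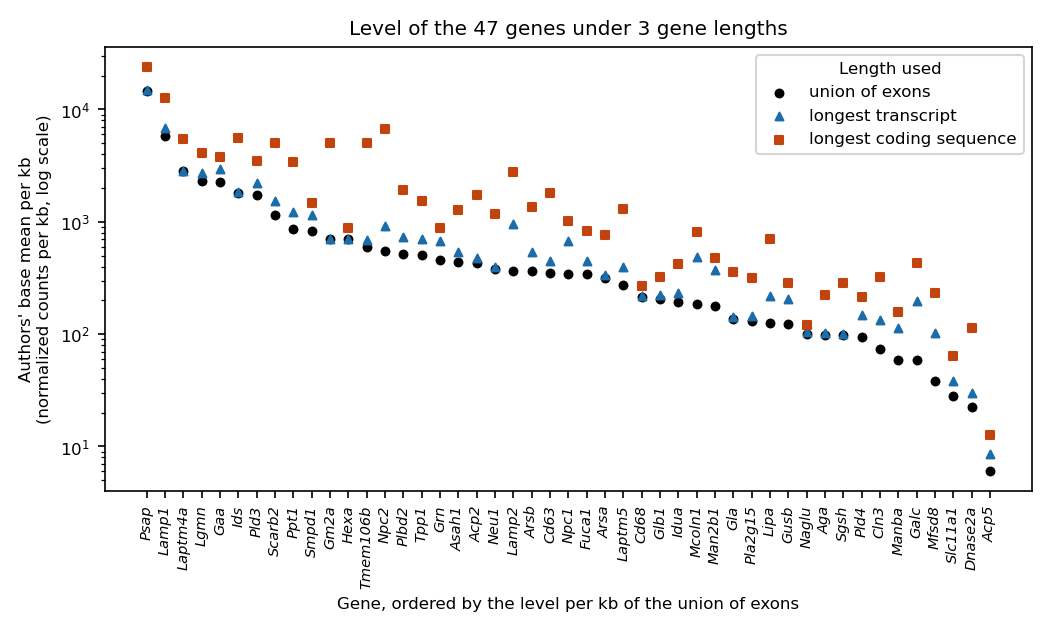
Level of each of the 47 genes (log scale) when the authors' base mean is divided by the union of exons, the longest transcript or the longest coding sequence. *Psap* at the left and *Acp5* at the right keep the highest and the lowest place under all 3 lengths, while genes with long noncoding exons such as *Npc2*, *Tmem106b* and *Lamp2* move up most with coding length.

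The lists of other genes place these levels in the tissue. The 16 subunits and accessory proteins of the V-ATPase had a median of 1526 per kb, with *Atp6v1b2* the highest at 2947 and *Atp6v0c*, the ring subunit, the lowest at 16.3. *Atp6v0c* and *M6pr* have annotated pseudogenes, and reads that match a gene and a near-identical copy are lost where uniquely mapped reads are counted, so their levels are uncertain. The 9 genes that deliver enzymes to the lysosome had a median of 372 per kb. Among them the sorting receptor gene *Sort1* had 1382 per kb and the receptors for mannose 6-phosphate, the tag on soluble lysosomal enzymes, had 703 for *M6pr* and 143 for *Igf2r*. The transcription factor genes were lower. *Tfeb* had 103 per kb, *Tfe3* 96.0 and *Mitf* 61.8, and *Tfec* had a base mean of 0.490.

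Markers of the cell types of the cord were all detected. The 6 oligodendrocyte markers had the highest median, 9637 per kb, followed by 1651 for 6 astrocyte markers, 973 for 7 neuronal markers and 256 for 8 microglial markers. The 5 motor neuron markers had a median of 156 per kb, from 11.5 for the developmental factor *Isl1* to 485 for the acetylcholine transporter gene *Slc18a3*. Markers of tissue outside the cord were not at 0, with base means from 89.1 to 251 for 4 skeletal muscle genes and from 22.9 to 46.8 for 3 liver genes. The muscle genes had a median of 35.4 per kb, and 3 of the 47 lysosomal genes (*Slc11a1*, *Dnase2a* and *Acp5*) lay below it. Of all ranked genes, 40.6% lay below *Myh4* and 41.8% below *Ckm*, the muscle genes on either side of that median. The highest muscle gene, the actin gene *Acta1*, had 163 per kb, above the median of the ranked genes. Below that level lay 15 of the 47 lysosomal genes and 68.9% of all ranked genes. The part of other tissue in the levels of the lysosomal genes was not tested.

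**Figure D4:**
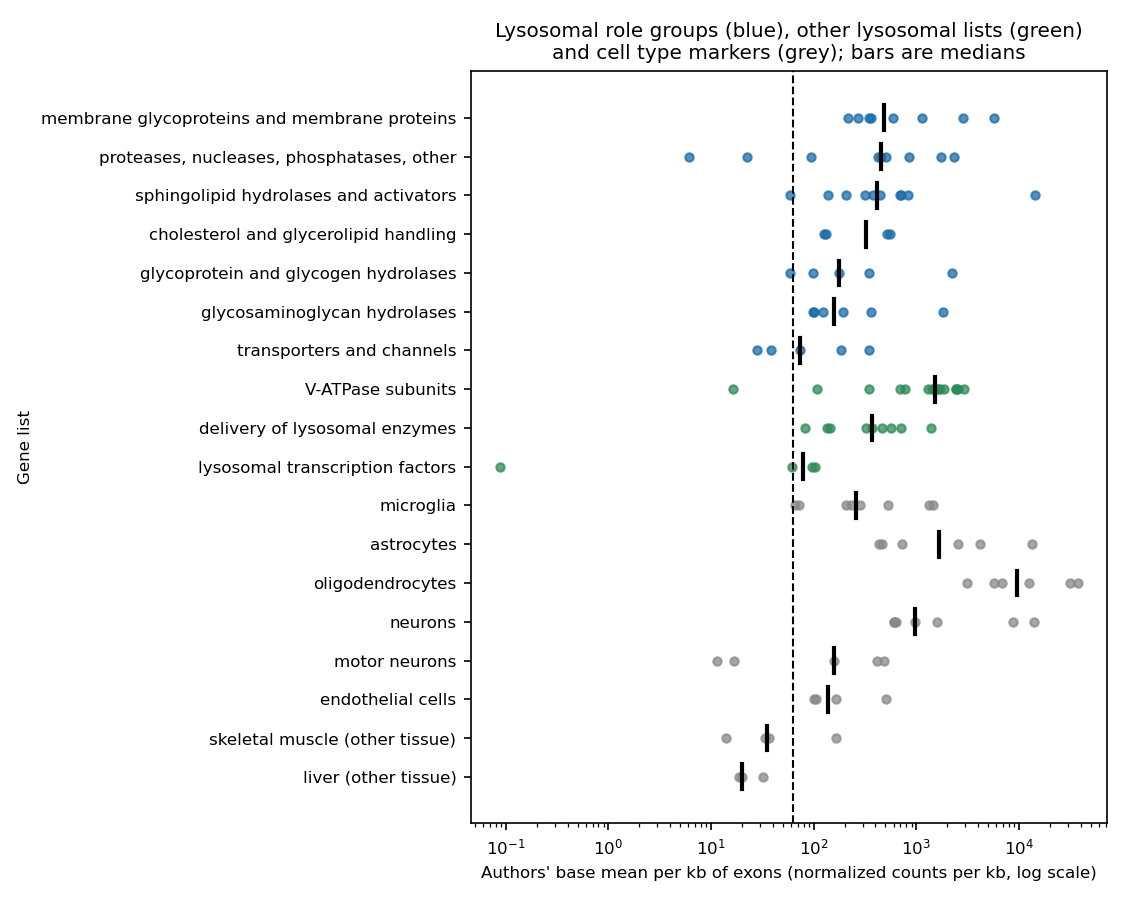
Levels per kb of exons (log scale) for the 7 lysosomal roles in blue, other lysosomal lists in green and cell type markers in grey, with 1 point per gene, bars at the medians and a dashed line at the median of all ranked genes. The V-ATPase median (1526 per kb) lies above those of all 7 roles, and the oligodendrocyte markers (median 9637 per kb) lie highest.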

How the data were processed

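RNA of the spinal cord of 5 SOD1 and 5 WT mice was sequenced, and groups follow the sample titles. According to the methods and the processing notes, the authors filtered the reads with Fastp, aligned them to mm10 with HISAT2 2.1.0, counted uniquely mapped reads with featureCounts 2.0.2 and used DESeq2. The gene annotation and strand setting of the counting are not given in the sources used here. The authors deposited 1 table. Its base mean, a signal value, averages all 10 libraries after the authors scaled the counts by size factors. The deposited table also holds 5 columns of the authors' own comparison (log2 fold change, its standard error, Wald statistic, p-value and adjusted p-value), which were not used. Depth per library and spread between mice are therefore unknown, no interval or test between genotypes was computed, and the human transgene could not be checked.

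Exon lengths and coordinates are from GENCODE M21 (GRCm38, the build that mm10 denotes). Symbols of 24310 of the 25232 genes (96.3%) matched exactly 1 annotated gene, and these hold 98.7% of all normalized counts. Promoter windows are from RefSeq, GRCm38.p6. Of 48 windows of the members, 41 had their downstream part inside a GENCODE transcript of the gene, and 0 had it in reverse. Each gene with any window holding a motif was counted once. The rule for the genes described covers all 47, ordered by 7 roles, with the highest and lowest of each role. The members and lists were chosen with earlier results of these data known. The alternatives were other gene lengths, other sets of ranked genes, other motifs and the geometric mean. Length, ranking and motif functions were tested on simulated data. Computations ran in Python 3.11.15 (numpy 2.4.6, pandas 2.3.3, matplotlib 3.10.9).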

Additional observations from a re-analysis of the deposited data

How the results depend on the processing

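The number of lysosomal genes above the median of the ranking was 41, and it lay between 36 and 44 under the other lengths and gene sets, with 36 when genes under a base mean of 10 were left out of the ranking. The membrane proteins kept the highest median of the 7 roles per kb of exons, per kb of the longest transcript, per kb of coding sequence and without division by length. The median level moved from 346 to 878 per kb with coding length, because the lengths are shorter. It was 448 with the longest transcript and 305 as a geometric mean. Coding length was chosen after the data were seen, in each of these results. So were the count of genes above the median without division by length (43) and the order of the roles by longest transcript. The number of genes with the E-box core was 10 in the whole window and upstream of the start, and 9 for GTCACGTG. It was 1 for the motif of 10 bases, because a longer motif is matched less often. That gene was *Cln3*, 2.33% of the 43 genes with a window, against 0.37% of all genes and 0.469% of the protein-coding genes. For 12 of the 47 genes the union of exons was more than 1.5 times the longest transcript, and ratios between single genes change with the length as given beside them. The share of all ranked genes over 1.5 was not computed, so whether this count is high or low cannot be said. No paired analysis was possible because the table used holds 1 pooled value per gene and no values of single mice. For the same reason the planned per-gene fits of SOD1 against WT were not run. The planned counts of glycosylation and sorting motifs in the proteins, and the length taken from the protein, were not run because no protein sequence was used here.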

Other observations

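The promoter windows of the 43 lysosomal genes had a median GC content of 56.3%, the same as that of the 17492 protein-coding genes, where the 27025 genes of all kinds had 52.7%. The GC box GGGCGG, on either strand, was found in 30 of the 43 (69.8%), against 49.2% of the protein-coding genes and 38.2% of all genes. The gap was smaller upstream of the start alone, with 24 of the 43 (55.8%), against 45.8% of the protein-coding genes and 35.4% of all genes. The motif TATAAA, also on either strand, was found in 4 of the 43 (9.30%), namely *Laptm4a*, *Laptm5*, *Lgmn* and *Lipa*, against 14.8% of the protein-coding genes. *Laptm4a*, the third highest of the 47 genes per kb, had the lowest GC content of the 43 windows, 38.0%.

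The 47 genes lie on 18 chromosomes, with 7 on chromosome 8, 6 on chromosome 11 and 5 on chromosome 12. Within 1 Mb of each other lay 3 pairs of neighbours. Neither the spread of all ranked genes over the chromosomes nor their neighbour pairs were counted. Whether the 47 genes lie closer together than other genes therefore cannot be said. *Gaa* and *Sgsh* point towards each other on chromosome 11 with 57970 bases and 1 protein-coding gene between them, and had 2244 and 98.2 per kb. Both held the E-box core. *Smpd1* and *Tpp1* on chromosome 7 are 186421 bases apart, and had 830 and 502 per kb. *Dnase2a* and *Man2b1* on chromosome 8 are 160354 bases apart, and had 22.5 and 179 per kb.

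Annotated exons of other genes overlapped those of 17 of the 47 genes, and for 13 of them the shared part was over 5% of the exonic bases. The same shares over all ranked genes were not computed, so whether these counts are high or low cannot be said. The shared part was 32.3% of the exonic bases of *Arsb* with *Gm26527*, 21.6% of those of *Sgsh* with *Card14* and 9.31% of those of *Lamp1* with *Grtp1*, all on the opposite strand. *Glb1* shared 5.49% of its exonic bases with *Tmppe* on the same strand. The base mean of *Tmppe* was 666 and that of *Glb1* was 621. The effect of these overlaps on the base means was not tested.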
